A study of Mus musculus with 39 samples.

Results

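The contrast described here asks, gene by gene, whether the difference between p95HER2 and FL-HER2 tumors changed as the tumors grew. It was taken over all 39 of the 39 libraries of the series, which fall into 4 groups by construct and day. There are 10 FL-HER2 and 10 p95HER2 libraries of day 10, and 9 FL-HER2 and 10 p95HER2 libraries of day 22. For each gene the p95HER2 minus FL-HER2 difference at day 10 was subtracted from that at day 22, on the deposited log2 values. A positive change between days thus means that p95HER2 stood higher relative to FL-HER2 at day 22 than at day 10, and a negative change the reverse. Every group is the PB2 mouse breast tumor grown as a graft and taken at 10 or 22 days from implantation, with the full-length receptor (FL-HER2) or its truncated form (p95HER2). Tumors with neither construct, the host strain, the promoter of the constructs and the number of clones behind each tumor are not described in the labels. Nothing there says that the libraries of a group came from separate animals, so the p-values measure the spread between these libraries, which may be technical.

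HER2, the product of Erbb2, is a receptor tyrosine kinase that pairs with other members of the EGF receptor family and drives the MAPK and PI3K cascades. p95HER2 is a group of carboxy-terminal HER2 fragments that lack most of the extracellular domain, where the antibody trastuzumab binds, and that keep the kinase. A graft becomes a tumor together with host fibroblasts, vessels, fat and immune cells, and the RNA of a whole tumor is the sum over all of them. In such bulk RNA, fewer cells of a type and less RNA per cell cannot be told apart.

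Whole reads recovered from the table came to between 21772259 and 44427621 per library. Epithelial markers were present throughout: Epcam ran from 421 to 773 CPM (reads scaled to a common library total) and Krt8 from 459 to 752 CPM over the 39 libraries. Skeletal muscle genes, 25 in all, made up 1.98% ± 1.21 of the reads of the FL-HER2 libraries of day 10 (SD, n = 10) and 0.337% ± 0.435 of the p95HER2 ones (n = 10). For day 22 the shares were 0.356% ± 0.290 (n = 9) and 0.218% ± 0.211 (n = 10). Muscle RNA thus moved with FL-HER2 at day 10, a group on which every change between days rests. Epidermal markers had a mean log2 value of at least 6 in 11 libraries, 2 and 5 of them FL-HER2 and p95HER2 at day 10 and 1 and 3 at day 22. Of the early FL-HER2 libraries, 8 carry a 5-digit tumor number in the column name, while replicates 7 and 9 and all other groups carry 3-digit ones. For replicate 8 the sample title gives a number of 4 digits, so its count of digits is uncertain. The labels do not say what the longer numbers stand for, and whether the 8 were pools of tumors is not known. With a term for the digits the FL-HER2 level at day 10 rests on replicates 7 and 9.

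Most genes that passed the test had a construct difference at day 10 that was no longer called at day 22. Of 13650 genes tested, 2682 (19.6%) passed in limma at a Benjamini-Hochberg adjusted p under 0.05, 1836 with a positive change (13.5%) and 846 with a negative one (6.20%), against 4636 at an unadjusted p under 0.05. On the deposited scale 510 of the positive and 57 of the negative changes were at least 2-fold. The median change over all tested genes was 0.04, and the split of signs depended on the scaling: the share of positive calls was 68.5% as deposited, 56.6% under median-of-ratios factors, 56.1% for log2(CPM + 1) and 42.7% after quantile normalization. Beside this, 5636 genes (41.3%) differed between the constructs at day 10 and 617 (4.52%) at day 22, and 7011 (51.4%) changed with time in FL-HER2 and 4799 (35.2%) in p95HER2. These 4 comparisons share libraries with the contrast between days and lend it no independent support.

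The calls at the single days sort the 2682 genes into shapes. The difference was called at day 10 and not at day 22 for 2290 genes (85.4%), of which 1587 had a positive and 703 a negative change. It was called at day 22 only for 111 genes (79 and 32), and at both days with opposite signs for 33 genes (23 and 10). It narrowed without turning sign for 28 genes and widened for 5, and 215 genes passed between days while neither single day did. A difference called on only 1 day is not shown to be absent on the other, and only the change between days was tested for a change. When the mean log2 level of the muscle genes entered as a covariate, 1903 of the 2682 genes (71.0%) kept call and sign. With the term for the digits of the tumor number 206 did (7.68%), while 99.1% kept their direction. Of the genes given by library below, Atp6v0a4, Stra6, Wif1, Timp3, Adora1, Bcl2, Slc20a1, Atg9b, Cd34 and Zmat3 passed with that term, and Otof, Mmp10, Lama3, Krt14, Clu, Cthrc1, Eng, Tspan8, Hsd17b7 and Foxp3 did not.

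**Figure D1:**
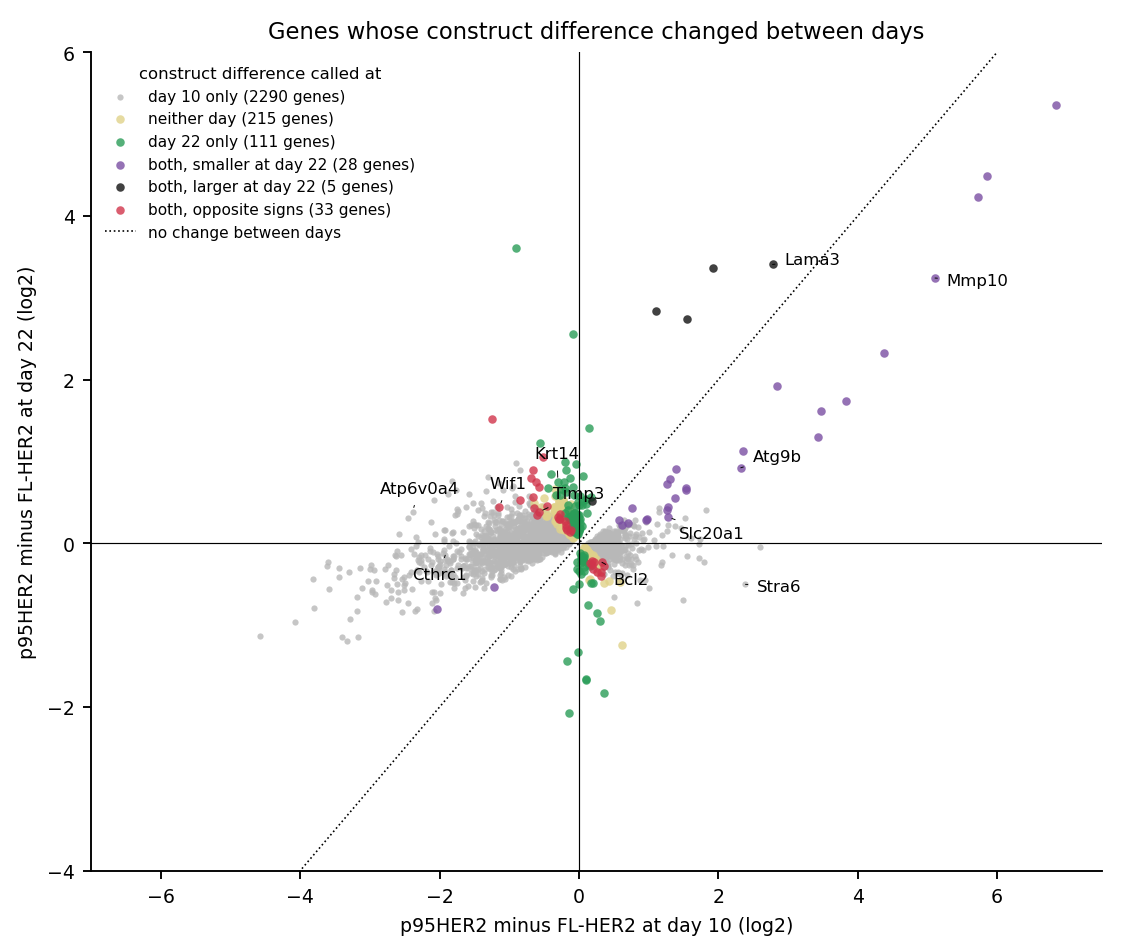
Each point is 1 of the 2682 genes whose construct difference changed between days, with the p95HER2 minus FL-HER2 difference at day 10 on the horizontal and at day 22 on the vertical axis (both log2), colored by the days at which the difference was called. The 2290 grey genes were called at day 10 and not at day 22. Their median difference at day 10 was -0.63 for the 1587 with a positive change and 0.30 for the 703 with a negative one. At day 22 these medians were 0.03 and -0.05. The 33 red genes lie in the upper left and lower right quadrants.

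Among the genes whose difference turned round, 23 went from lower in p95HER2 tumors at day 10 to higher at day 22. Wif1, a secreted inhibitor that binds Wnt ligands (chromosome 10, 121033960 to 121100650, plus strand, GRCm38), had the smallest adjusted p of the 33. At day 10 it ran from 61.0 to 125 CPM (median 81.5) in FL-HER2 and from 29.5 to 67.6 CPM (median 37.6) in p95HER2 tumors. At day 22 it ran from 49.1 to 68.5 CPM (median 58.7) and from 62.8 to 105 CPM (median 78.6). The order of the medians was thus reversed, with some overlap between constructs on either day. The difference was -1.14 at day 10 and 0.44 at day 22, a change of 1.58 ± 0.18, adjusted p = 8.89e-07.

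Timp3, an inhibitor of metalloproteinases that stays in the matrix (chromosome 10, 86300372 to 86349506, plus strand), fell with time in both constructs, further in FL-HER2 (-1.43) than in p95HER2 (-0.47). At day 10 its level was 439.5 to 601 CPM (median 505) in FL-HER2 and 304 to 403 CPM (median 346) in p95HER2 libraries, and these ranges did not overlap. At day 22 it was 169.9 to 297 CPM (median 196) and 180.0 to 327 CPM (median 273), with overlap. The construct difference went from -0.58 to 0.38 (change 0.96 ± 0.14, adjusted p = 1.47e-05).

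Adora1, an adenosine receptor (chromosome 1, 134199223 to 134235431, minus strand), had p95HER2 tumors rising with time (1.02, adjusted p = 3.96e-07) and FL-HER2 tumors falling (-0.35, adjusted p = 0.0471). Its level was 13.8 to 29.3 CPM (median 16.5) in FL-HER2 and 6.71 to 17.6 CPM (median 10.3) in p95HER2 at day 10. It was 9.95 to 21.9 CPM (median 13.6) and 17.7 to 28.7 CPM (median 20.84) at day 22, so that every p95HER2 library at day 22 lay above every one at day 10. The change between days was 1.37 ± 0.21, adjusted p = 2.43e-05.

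Others that turned the same way were the protease inhibitor genes Slpi (1.57) and Wfdc12 (2.77), the retinol carrier Rbp4 (1.54), and the transcription factors Xbp1 of the secretory pathway (0.62) and Srebf1 of lipid synthesis (0.41). Srebf1 did not pass after quantile normalization (adjusted p = 0.0689). Median CPM of Slpi was 86.7 and 58.2 at day 10 and 15.7 and 36.6 at day 22, in FL-HER2 and p95HER2. Its reversal thus came with a fall over time in both, of -2.46 in FL-HER2 and -0.89 in p95HER2.

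The other 10 genes were higher in p95HER2 at day 10 and lower at day 22. Bcl2, which restrains apoptosis (chromosome 1, 106538178 to 106714274, minus strand), ran from 38.2 to 53.1 CPM (median 45.8) in FL-HER2 and from 51.3 to 72.3 CPM (median 58.03) in p95HER2 at day 10. At day 22 the ranges were 52.3 to 68.0 CPM (median 62.2) and 45.5 to 58.8 CPM (median 51.6), again overlapping, with a change of -0.56 ± 0.08, adjusted p = 1.51e-05. The others named by the selection rule were the Myb family factor Mybl1 (-0.72), Sox13 (-0.67), the kinesin Kif21b (-0.61), Plekhh1 (-0.65) and the p53 target Trp53inp1 (-0.51). All 33 genes kept opposite signs at the 2 days with the muscle covariate, where 10 were still called at both. With the digits term 30 kept opposite signs and 5 were called at both. All 33 kept opposite signs with median-of-ratios factors, on log2(CPM + 1) and after quantile normalization, where 22, 20 and 16 were called at both. Without the libraries high in epidermal markers all 33 did and 3 were called at both.

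**Figure D2:**
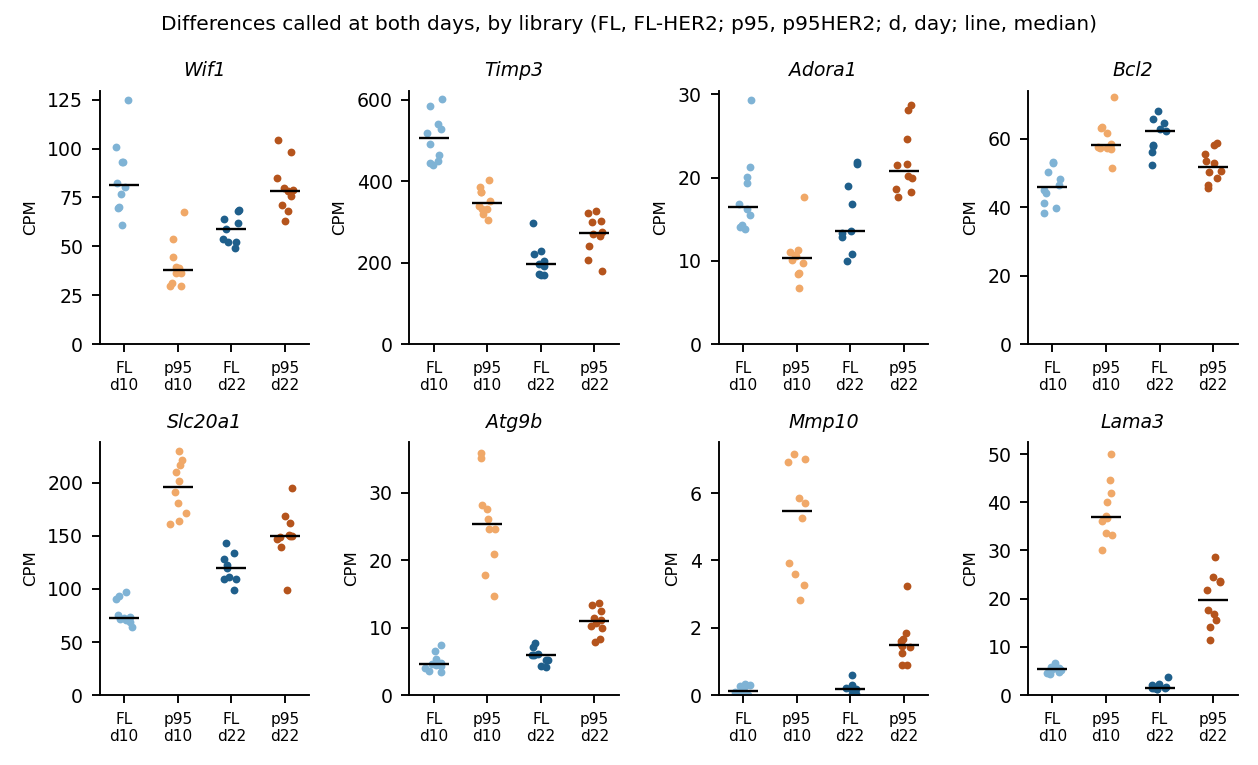
CPM in each library (points) and the group median (line) for 8 genes whose construct difference was called at both days; each vertical axis starts at 0 and has its own scale. In Wif1, Timp3 and Adora1 the p95HER2 median lies below that of FL-HER2 at day 10 and above it at day 22, Bcl2 does the reverse, in Slc20a1, Atg9b and Mmp10 a p95HER2 excess shrinks, and in Lama3 it is present on both days.

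Genes whose excess in p95HER2 tumors narrowed made up 26 of the 28 narrowing genes. Slc20a1, a sodium-dependent phosphate importer (chromosome 2, 129198764 to 129211616, plus strand), had 64.5 to 97.2 CPM (median 73.1) in FL-HER2 and 161 to 230.4 CPM (median 196) in p95HER2 at day 10, with no overlap. At day 22 it had 98.8 to 143 CPM (median 119) and 99.2 to 195 CPM (median 150.0), with overlap. It rose with time in FL-HER2 (0.51) and fell in p95HER2 (-0.44), and the change between days was -0.95 ± 0.12, adjusted p = 1.23e-06. It also passed with the digits term (-0.83, adjusted p = 0.00684).

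Atg9b, an autophagy membrane protein (chromosome 5, 24384181 to 24392143, minus strand), stood at 3.41 to 7.37 CPM (median 4.54) and 14.6 to 35.9 CPM (median 25.4) at day 10, and at 4.16 to 7.72 CPM (median 5.91) and 7.86 to 13.6 CPM (median 10.9) at day 22, in FL-HER2 and p95HER2. The constructs did not overlap on either day, and the p95HER2 libraries of the 2 days did not overlap with each other. FL-HER2 changed by 0.14 with time (adjusted p = 0.442) and p95HER2 fell by 1.26. The change between days was -1.40 ± 0.20, adjusted p = 1.24e-05.

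Mmp10, a secreted matrix metalloproteinase (chromosome 9, 7502352 to 7510240, plus strand), ran from 0 to 0.316 CPM (median 0.126) in FL-HER2, where 2 of 10 libraries were at 0, and from 2.81 to 7.17 CPM (median 5.47) in p95HER2 at day 10. At day 22 the ranges were 0 to 0.597 CPM (median 0.176), with 1 of 9 at 0, and 0.901 to 3.24 CPM (median 1.49). All p95HER2 libraries lay above all FL-HER2 libraries on both days, while the change between days was -1.87 ± 0.62, adjusted p = 0.0290. The call ended without 1 of the libraries, FL-HER2 day 22 replicate 6 (adjusted p = 0.0506). The log2(normalized count + 1) scale understates differences against levels this near 0.

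Also narrowing were the cardiac troponin Tnnt2 (-1.23) and the acyl-CoA synthetase Acsbg1 (-0.92). Chosen after their values were seen were the hyaluronan synthase Has2 (-0.88), the hyaluronan receptor Cd44 (-0.28), the integrin Itga3 (-0.49) and the matrix protease Adamts4 (-0.67). The peptidase Dpp4, with a deficit in p95HER2 that shrank (1.23), was 1 of the 2 positive changes of this shape.

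The sequence before the start site is shown for Mmp10 and Adora1 because these genes, of opposite direction, both match a loose form of the AP-1 motif. AP-1 is made of Fos and Jun dimers that MAPK signaling induces. The motif was searched as TGANTCA, with any middle base, on both strands in the 250 bases before each start site. The start sites came from the RefSeq table (build GRCm38.p6). A second motif, TCACNCCAC, was also searched and is not overlaid. Of genes with a window, it was held by 0 of 21 narrowing genes, 1 of 26 that turned and 1 of 15 cholesterol synthesis genes. Among all tested genes with a window 129 of 10676 held it (1.21%). Capitals mark the AP-1 match, which begins 63 bases before the start in Mmp10 and 104 in Adora1. The windows are chr9:7502092-7502341 on the plus strand and chr1:134235458-134235707 on the minus strand.
Mmp10: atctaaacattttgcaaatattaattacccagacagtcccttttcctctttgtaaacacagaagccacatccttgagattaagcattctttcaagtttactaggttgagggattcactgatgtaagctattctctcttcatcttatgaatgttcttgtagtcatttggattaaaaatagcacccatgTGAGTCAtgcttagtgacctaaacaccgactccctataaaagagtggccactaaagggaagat
Adora1: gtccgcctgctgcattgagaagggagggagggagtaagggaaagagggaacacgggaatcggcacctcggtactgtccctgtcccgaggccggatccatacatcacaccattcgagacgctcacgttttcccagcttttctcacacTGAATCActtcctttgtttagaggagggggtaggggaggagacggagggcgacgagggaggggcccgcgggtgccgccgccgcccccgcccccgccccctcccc
Of 28 narrowing genes 21 had a window in the table and 2 held the motif (9.52%), Mmp10 and Il1a. Of the 33 genes that turned, 26 had a window and 4 held it (15.4%), Adora1, F3, Plet1 and Rbp4. Among all tested genes 10676 had a window and 615 held it (5.76%), and over all 32851 windows of the table the share was 6.75%. These matches describe letters only. The middle base is G in Mmp10 but A in Adora1 and T in Plet1. Such matches were counted together with those that have G or C, the bases of the usual AP-1 site. The list of AP-1 and immediate early genes gave 3 positive calls among 15 and none negative, against 13.5% and 6.20% over all tested genes: Fos (0.70 ± 0.24, adjusted p = 0.0361), Atf3 (0.98) and Klf4 (0.55). Fos did not pass with median-of-ratios factors (adjusted p = 0.0502), after quantile normalization (0.0569) or with the muscle covariate (0.0518). Of 15 matrix proteases and inhibitors 6 passed upward, Timp3 among them, and Mmp10 passed downward.

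The difference widened for 5 genes, of which 2 kept the call with median-of-ratios factors and 0 after quantile normalization, on log2(CPM + 1) or without the libraries high in epidermal markers. Among them was Lama3, the alpha chain of laminin-332. It ran from 4.46 to 6.71 CPM (median 5.41) in FL-HER2 and from 30.1 to 50.1 CPM (median 37.0) in p95HER2 at day 10, and from 1.19 to 3.67 CPM (median 1.55) and 11.3 to 28.5 CPM (median 19.7) at day 22. The constructs did not overlap on either day, and both fell with time, by 1.69 in FL-HER2 and by 1.06 in p95HER2. The change was 0.63 ± 0.22, adjusted p = 0.0376, and it did not pass with the muscle covariate (adjusted p = 0.0591), after quantile normalization (0.298) or on log2(CPM + 1) (0.417). Laminin-332 and hemidesmosomes anchor epithelium to its basement membrane. Of their 11 genes 3 passed upward (Krt14, Lamb3, Lama3) and 2 downward, Itgb4 among them, against 13.5% and 6.20% over all tested genes. The median was 0.06 against 0.04 over all genes. Lamb3, too, did not pass with the muscle covariate (adjusted p = 0.108).

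Several genes with a marked construct difference on both days did not pass the test between days. Erbb2 ran from 144 to 235 CPM (median 180.3) in FL-HER2 and from 240.2 to 475 CPM (median 348) in p95HER2 at day 10, and from 87.9 to 165 CPM (median 105) and 156 to 227 CPM (median 175) at day 22. p95HER2 was thus higher on both days, and the change between days was -0.12 ± 0.15, adjusted p = 0.608, smaller than its error. Reads of the construct and the endogenous gene cannot be told apart here. Hmga2, a chromatin protein of embryonic tissue, ran from 0.295 to 0.988 CPM (median 0.580) and from 33.8 to 56.0 CPM (median 45.7) at day 10, and from 0.0585 to 0.689 CPM (median 0.187) and 6.41 to 18.9 CPM (median 16.04) at day 22. The constructs were far apart on both days, p95HER2 lost part of its level with time, and the change was -0.42 ± 0.41, adjusted p = 0.490. On log2(CPM + 1), which gives low values less weight, Hmga2 did pass (adjusted p = 3.97e-05).

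Dynap (-0.03 ± 0.56, adjusted p = 0.976), the IL-10 family cytokine Il24 (-0.99 ± 0.50, adjusted p = 0.152), the EGF receptor ligand Areg (-0.90 ± 0.43, adjusted p = 0.137), the surface glycoprotein Msln (0.22 ± 0.73, adjusted p = 0.856) and Cd274, which encodes PD-L1 (-0.08 ± 0.61, adjusted p = 0.941), did not pass either. Il24 was at 0 in all 9 FL-HER2 libraries at day 22, so its change has no firm size. Of 11 HER2 family receptors and ligands, only Erbb3 passed (0.38 ± 0.13, adjusted p = 0.0405), and it did not pass with median-of-ratios factors (adjusted p = 0.0678), after quantile normalization (0.0674), on log2(CPM + 1) (0.114) or with the digits term (0.447). MAPK feedback targets are genes that ERK signaling induces. In their list 2 of 19 passed downward and 1 upward, against 6.20% and 13.5% over all tested genes. The downward calls were the ETS factor Etv4 (-0.39) and Spred1 (-0.30), and the upward call was Phlda1 (0.31). Phlda1 lost its call under each of the other scalings (adjusted p = 0.0774 to 0.123), with the muscle covariate (0.0519) and with the digits term (0.161). The median of the MAPK list was -0.15. Of its members 13 were higher in p95HER2 at day 10 and 8 at day 22, against 2071 and 407 of all tested genes.

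Positive changes were frequent among stromal genes, against 13.5% over all tested genes. For fibroblast markers 13 of 24 passed upward and none downward, with a median change of 0.97 against 0.04 over all genes. Of collagens 14 of 20 passed upward (median 0.75), and of matrix glycoproteins and proteoglycans 14 of 24 (median 0.80). These lists share genes. In both constructs they fell with time: 23 fibroblast members in FL-HER2 and 20 in p95HER2, and 20 and 16 collagens, from a higher start in FL-HER2. Of all tested genes 4181 fell in FL-HER2 and 2537 in p95HER2.

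Cthrc1, a secreted matrix protein of activated fibroblasts (chromosome 15, 39076932 to 39087121, plus strand), shows the pattern. At day 10 it ran from 29.6 to 91.4 CPM (median 58.3) in FL-HER2 and from 8.91 to 31.2 CPM (median 12.3) in p95HER2, with overlap in the lowest FL-HER2 and highest p95HER2 libraries. At day 22 the ranges were 4.32 to 13.1 CPM (median 9.54) and 4.39 to 11.3 CPM (median 7.02), with wide overlap. The change was 1.77 ± 0.32, adjusted p = 2.35e-04. The 2 FL-HER2 day 10 libraries with 3-digit numbers, replicates 7 and 9, were at 29.6 and 32.9 CPM, among the lowest of that group, and the change with the digits term was 0.96 (adjusted p = 0.247).

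Cd34, a sialomucin of fibroblasts and vessels (chromosome 1, 194938819 to 194961279, plus strand), ran from 50.6 to 85.1 CPM (median 78.0) in FL-HER2 and from 19.9 to 49.4 CPM (median 26.6) in p95HER2 at day 10, without overlap. At day 22 it ran from 17.4 to 32.3 CPM (median 26.7) and from 18.2 to 38.0 CPM (median 25.5), so that every FL-HER2 library at day 10 lay above every library of the 3 other groups. The change was 1.36 ± 0.22, adjusted p = 5.72e-05, and it passed with the digits term (1.16, adjusted p = 0.0414). Other members that passed were the small proteoglycans Ogn (1.83), Dcn (1.39) and Lum (1.36), the fibrillar collagen Col3a1 (1.27), the fibril-associated collagens Col14a1 (1.49) and Col16a1 (1.18), and Sparc (1.13), a collagen-binding matrix protein. Muscle reads moved with these groups. Once the muscle covariate was included, 14 fibroblast, 10 collagen and 14 matrix members passed upward (medians 0.94, 0.78 and 0.81). With the digits term 1, 0 and 0 did, at medians of 0.40, 0.24 and 0.36.

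Among blood vessel genes, 16 of 24 endothelial markers were lower in p95HER2 at day 10 and 1 was higher. Of all 13650 tested genes 3565 were lower and 2071 higher. Between days 18 markers passed upward, against 13.5% over all tested genes, and 1, the transcription factor Erg, downward (-0.37), with a median of 0.85. In FL-HER2 17 of the markers fell with time (median -0.60), against 4181 of all tested genes. In p95HER2 3 rose and 3 fell (median 0.20), against 2262 and 2537. The list median between constructs went from -0.52 at day 10 to 0.27 at day 22. There 1 member was higher, against 407 of all tested genes. Eng, the TGF-beta coreceptor endoglin (chromosome 2, 32646595 to 32682669, plus strand), ran from 41.3 to 78.6 CPM (median 52.3) in FL-HER2 and from 27.1 to 55.3 CPM (median 32.7) in p95HER2 at day 10, and from 24.3 to 50.9 CPM (median 39.9) and 35.5 to 56.8 CPM (median 41.2) at day 22. All groups overlapped, the p95HER2 median was the lowest at day 10, and the change was 0.95 ± 0.18, adjusted p = 3.45e-04.

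Among the other endothelial genes, the angiopoietin receptor family member Tie1 (1.04), the adhesion molecule Esam (1.01) and Egfl7 (0.76) passed. Emcn, chosen after its values were seen, was called at day 22 and not at day 10 (change 0.81, medians of 6.99 CPM in FL-HER2 and 12.6 in p95HER2 at day 22). Of pericyte and smooth muscle genes 4 of 14 passed upward, against 13.5% over all tested genes. These were the potassium channel subunits Abcc9 (1.33) and Kcnj8, Rgs5 (1.17) and Lmod1 (0.77). With the muscle covariate 18 endothelial members passed upward (median 0.86), without the 11 libraries high in epidermal markers 14, and with the digits term none (median 0.47). The basement membrane collagens Col4a1 (0.76) and Col4a2 (0.74) passed between days, although neither did at a single day.

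**Figure D3:**
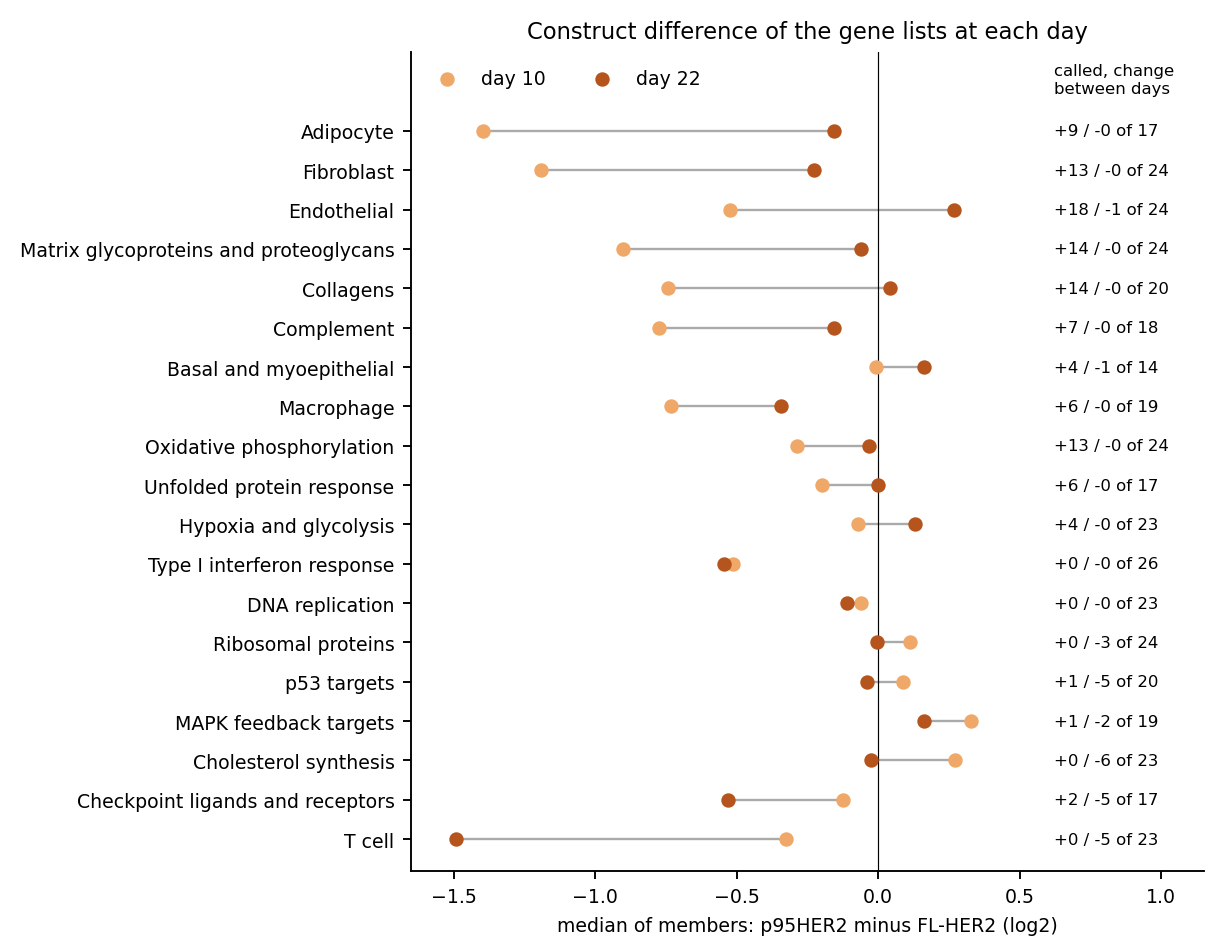
Median p95HER2 minus FL-HER2 difference (log2, horizontal axis) over the tested members of 19 gene lists at day 10 (light) and day 22 (dark), with the number of members called upward and downward in the change between days at the right. Stromal, matrix and fat lists move from well below 0 at day 10 toward 0 at day 22, and the T cell list moves from -0.33 to -1.49.

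Positive calls were also found among fat, complement, macrophage and chemokine genes, against 13.5% over all tested genes. Of 17 adipocyte genes 9 passed upward, with a median of 1.25, among them lipoprotein lipase Lpl (1.26), the acyl-CoA synthetase Acsl1 (1.16), the lipid droplet protein Plin4 (2.38) and the differentiation factor Cebpa (0.57). Of 18 complement genes 7 passed upward (median 0.64), with the anaphylatoxin receptors C3ar1 (0.81) and C5ar1 (0.67) and the regulator Cd55 (1.32). Of 19 macrophage markers 6 did (median 0.43), with Adgre1, the gene of F4/80 (0.95), lysozyme Lyz2 (0.93), Ms4a7 (0.75) and Trem2 (0.61). Of 21 chemokines 5 passed upward, including the monocyte attractants Ccl2 (1.18) and Ccl7 (1.26), fibroblast-derived Cxcl12 (0.63) and Cx3cl1 (0.60).

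With the muscle covariate 8 adipocyte, 4 complement, 4 macrophage and 3 chemokine members passed upward, and with the digits term 1, 0, 0 and 0. Of 13 Schwann cell and nerve genes 5 passed upward and 2 downward, against 13.5% and 6.20% over all tested genes. They included the myelin protein Pmp22 (1.20), whose median level in FL-HER2 at day 10 was 15.5 CPM.

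Skeletal muscle genes themselves had large changes with wide errors. All 25 tested members had a positive change, with a median of 2.64, yet only Mb, myoglobin, passed (1.997). At day 10 each of the 25 was lower in p95HER2 (median -4.39), against 3565 of all tested genes. None of the 25 passed at day 22 (median -1.74). Their summed level ran from 526 to 40932 CPM in FL-HER2 and from 43.2 to 11210 in p95HER2 at day 10, and from 274 to 9963 and from 18.3 to 6389 at day 22. The medians were 18400 CPM in FL-HER2 and 258 in p95HER2 at day 10, and 2421 and 2476 at day 22. The low end of FL-HER2 at day 10 was a single library, replicate 10, with 0.0526% muscle reads. The next lowest there, replicate 1, had 0.956%, above the highest of p95HER2 at day 22 (0.639%). Of the 6 largest positive changes that the selection rule took, 5 were genes that muscle expresses strongly: the cytochrome oxidase subunits Cox8b (3.45 ± 1.25, adjusted p = 0.0466) and Cox7a1 (2.84), Popdc2 (3.13), cardiac actin Actc1 (3.03) and the insulin-responsive glucose transporter Slc2a4 (3.01). With the muscle covariate Cox8b and Actc1 no longer passed (adjusted p = 0.0559 and 0.0968). Cox8b lost its call when any one of 27 libraries was left out, and Actc1 and Slc2a4 with any one of 11 each.

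Atp6v0a4, a subunit of the proton pump V-ATPase (chromosome 6, 38048483 to 38124586, minus strand), was the exception among those 6. It ran from 3.36 to 7.76 CPM (median 5.24) in FL-HER2 and from 0.293 to 1.71 CPM (median 1.24) in p95HER2 at day 10, without overlap. At day 22 it ran from 2.02 to 5.99 CPM (median 3.32) and from 3.27 to 10.4 CPM (median 4.22), so that p95HER2 tumors rose past all of their own day 10 values. The change was 2.77 ± 0.34, adjusted p = 9.63e-07, 2.98 with the muscle covariate (adjusted p = 1.96e-07) and 2.401 with the digits term (adjusted p = 0.00594).

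**Figure D4:**
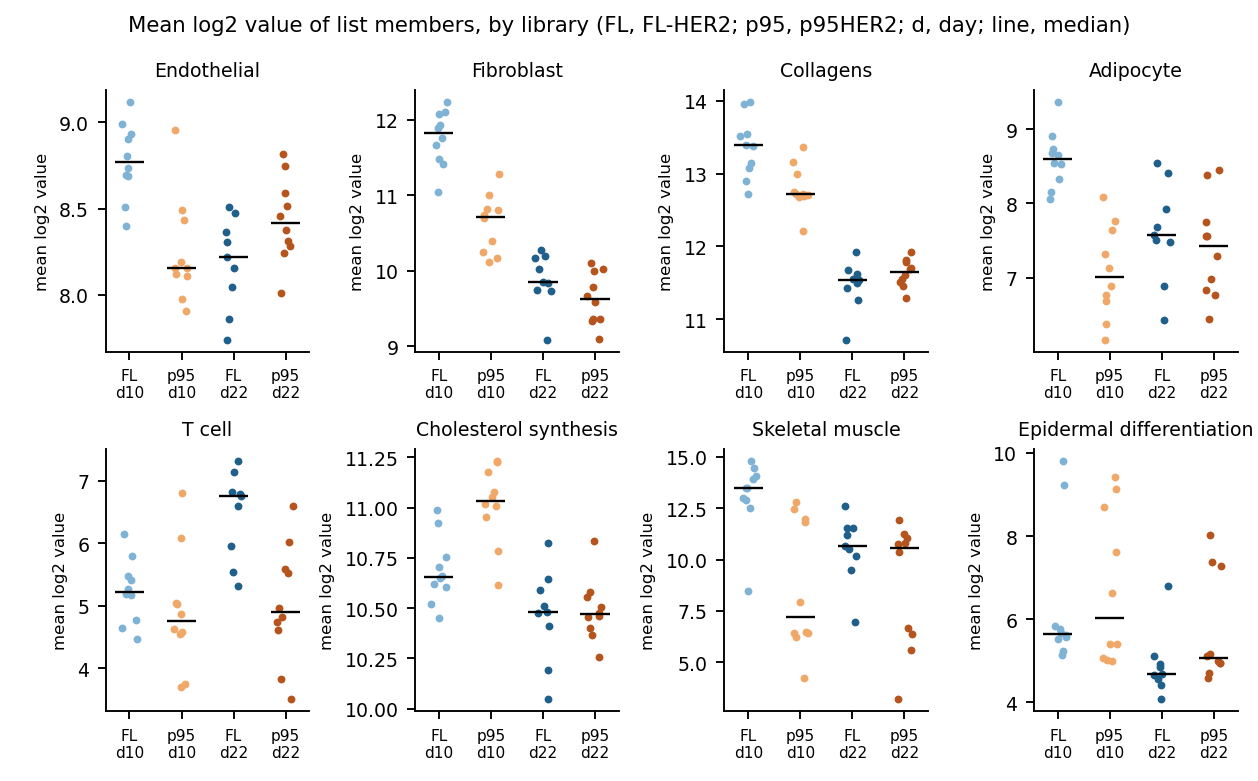
Mean log2 value of the tested members of 8 gene lists in each library (points) and the group median (line), with a scale of its own for each panel. FL-HER2 at day 10 is the highest group for the endothelial, fibroblast, collagen, adipocyte and skeletal muscle lists, T cell genes are highest in FL-HER2 at day 22, and epidermal genes are high in a few libraries of each group.

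Genes of energy and protein metabolism made smaller moves. Of 24 oxidative phosphorylation genes 13 passed upward, against 13.5% over all tested genes, and none downward, with a median of 0.24. All 24 had a positive change, and 23 were lower in p95HER2 at day 10 and none at day 22. Of all tested genes 3565 and 210 were lower on those days. Examples were the respiratory chain genes Cyc1 (0.25 ± 0.05, adjusted p = 8.71e-04), Ndufb5 (0.39) and Sdha (0.24) and the ATP synthase subunit Atp5b (0.24). Muscle is rich in this RNA, and with the muscle covariate 5 passed (median 0.19). Without that covariate 8 passed with median-of-ratios factors and 10 after quantile normalization, and voom called 7. The count thus also fell with the scaling alone, and the part of muscle RNA in the fall was not tested. With the digits term none passed (median 0.14).

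Of 17 genes of the unfolded protein response 6 passed upward (median 0.23), against 13.5% over all tested genes. Among them were Xbp1, the stress factor Ddit3 (0.85 ± 0.21, adjusted p = 0.00436), Trib3 (0.45) and the chaperone Dnajb9 (0.50). Of 13 targets of the antioxidant factor Nrf2, 5 passed upward, such as Nqo1 (0.72) and Srxn1 (0.52), and Gclc passed downward (-0.36). Of 23 hypoxia and glycolysis genes 4 passed upward, a share near the 13.5% over all tested genes. They were the glycolytic enzymes Aldoa (0.71) and Pfkfb4 (0.52), the collagen hydroxylase P4ha2 (0.56) and the carbonic anhydrase Car9 (0.47). Aldoa did not pass with the muscle covariate (adjusted p = 0.0649). Car9 differed at day 22, with medians of 86.1 CPM in FL-HER2 and 124 in p95HER2, and had 135 and 145 at day 10.

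Of 20 luminal epithelial genes 4 passed upward and 1 downward, shares near the 13.5% and 6.20% over all tested genes. Tspan8, a tetraspanin (chromosome 10, 115816832 to 115849893, plus strand), ran from 8.01 to 22.7 CPM (median 16.2) in FL-HER2 and from 2.85 to 10.1 CPM (median 5.88) in p95HER2 at day 10, and from 3.62 to 7.55 CPM (median 5.32) and 4.53 to 9.12 CPM (median 7.35) at day 22. FL-HER2 at day 10 was the high group, above all of FL-HER2 at day 22 and overlapping p95HER2 on both days, and the change was 1.86 ± 0.30, adjusted p = 4.82e-05. The progesterone receptor Pgr (1.29) and the tight junction gene Cldn3 (0.49) moved the same way, and Cldn4 (-1.21) the other way.

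Among the most negative changes, some came with a fall over time in p95HER2 and others with a rise in FL-HER2. Stra6, the cell surface receptor for retinol-binding protein (chromosome 9, 58063788 to 58153996, plus strand), ran from 0.463 to 2.14 CPM (median 1.24) in FL-HER2 and from 2.66 to 8.21 CPM (median 7.03) in p95HER2 at day 10, without overlap. At day 22 it ran from 0.436 to 1.53 CPM (median 0.965) and from 0.395 to 1.40 CPM (median 0.582), so that the p95HER2 libraries had fallen below all of their day 10 values. The change was -2.89 ± 0.35, adjusted p = 9.63e-07, the most negative of the named genes, and -3.71 with the digits term (adjusted p = 1.96e-05). Its carrier Rbp4, above, moved the opposite way.

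Otof, a membrane-fusion protein of the ferlin family (chromosome 5, 30367062 to 30461932, minus strand), ran from 0.422 to 4.58 CPM (median 1.64) and from 3.37 to 18.2 CPM (median 10.0) at day 10, and from 2.24 to 18.8 CPM (median 4.96) and 2.29 to 13.1 CPM (median 4.87) at day 22, in FL-HER2 and p95HER2. The 2 constructs had like medians at day 22, where FL-HER2 had risen (1.81, adjusted p = 2.27e-04), and the change was -2.64 ± 0.55, adjusted p = 9.88e-04. The interleukin 18 receptor subunit Il18rap (-1.90 ± 0.36, adjusted p = 3.77e-04) and Acap1, a GTPase-activating protein (-1.71 ± 0.27, adjusted p = 5.52e-05), followed. The long noncoding RNA Kcnq1ot1 also had a negative change (-1.57 ± 0.33, adjusted p = 9.68e-04), as did Malat1, chosen after its values were seen (-1.55 ± 0.34, adjusted p = 0.00132). With the digits term neither passed, Kcnq1ot1 at -0.95 (adjusted p = 0.290) and Malat1 at -0.58 (adjusted p = 0.530). For Neat1, another nuclear noncoding RNA and also chosen after its values were seen, the change was -0.005 ± 0.34, adjusted p = 0.995.

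**Figure D5:**
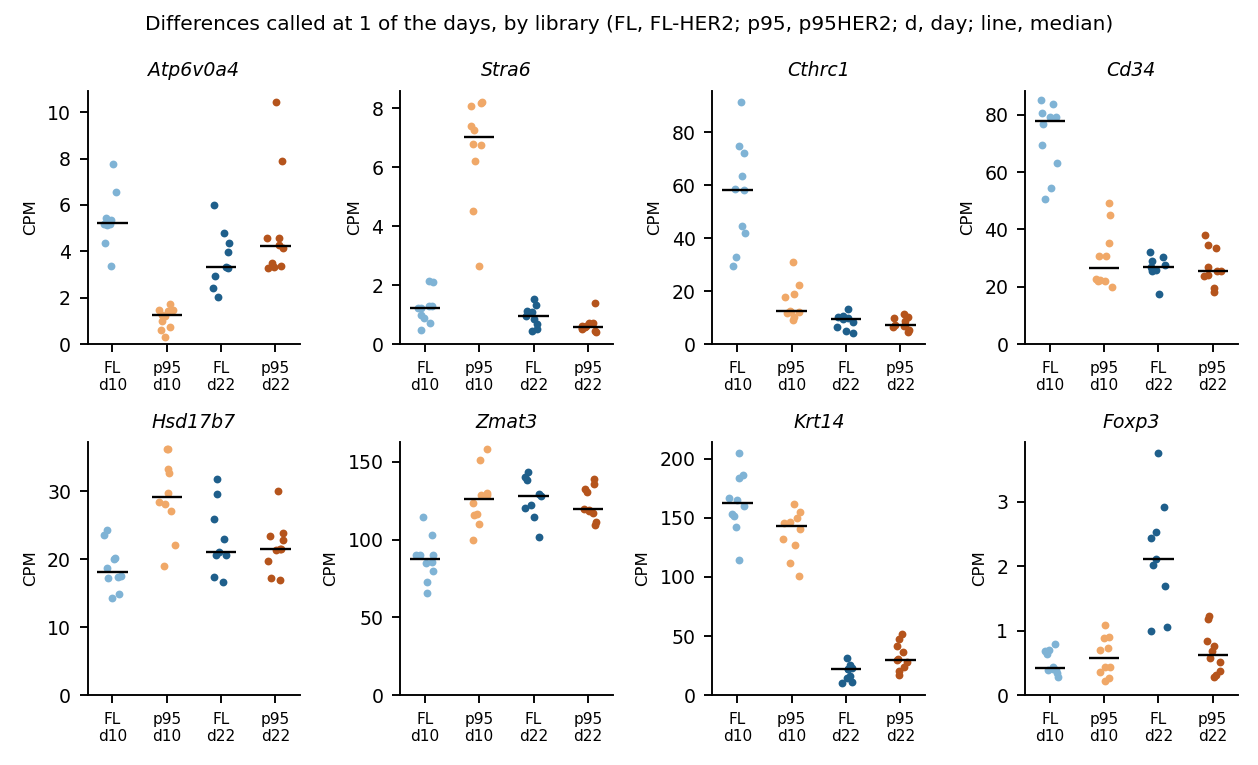
CPM in each library (points) and the group median (line) for 8 genes whose construct difference was called at 1 day only; each vertical axis starts at 0 and has its own scale. Atp6v0a4, Stra6, Cthrc1, Cd34, Hsd17b7 and Zmat3 differ at day 10, while Krt14 and Foxp3 differ at day 22.

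Cholesterol synthesis genes were higher in p95HER2 tumors at day 10 and gave no call at day 22. Of 23 members 6 passed downward, against 6.20% over all tested genes, and none upward. A negative change was seen in 22, and the median was -0.32. At day 10, 14 were higher in p95HER2, against 2071 of all tested genes. With time 17 fell in p95HER2, against 2537 of all tested genes. In FL-HER2 8 fell and 1 rose, against 4181 and 2830. Hsd17b7, a sterol reductase of the pathway (chromosome 1, 169949535 to 169969241, minus strand), ran from 14.3 to 24.3 CPM (median 18.2) in FL-HER2 and from 18.97 to 36.2 CPM (median 29.1) in p95HER2 at day 10, and from 16.6 to 31.8 CPM (median 21.1) and 16.9 to 30.0 CPM (median 21.5) at day 22. p95HER2 at day 10 was the high group, with overlap, and the change was -0.63 ± 0.16, adjusted p = 0.00488.

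The sterol transporter Stard4 (-0.46) also passed. With the muscle covariate 3 members passed (median -0.23) and with the digits term none (median -0.34). Of 13 fatty acid synthesis genes 4 passed downward and 3 upward, against 6.20% and 13.5% over all tested genes. The elongase Elovl5 (-0.20) was among those downward. Upward were Srebf1, malic enzyme Me1 (0.40) and Acacb (1.48), the carboxylase isoform of muscle and other oxidative tissue. With the muscle covariate 3 fatty acid synthesis genes passed upward and none downward, and with the digits term none passed.

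Targets of p53 gave 5 negative calls and 1 positive among 20, against 6.20% and 13.5% over all tested genes, with a median of -0.12. Zmat3, an RNA-binding p53 target (chromosome 3, 32334792 to 32366014, minus strand), ran from 65.5 to 115 CPM (median 87.6) in FL-HER2 and from 99.6 to 158 CPM (median 126) in p95HER2 at day 10, and from 102 to 143 CPM (median 128) and 109 to 139 CPM (median 119.5) at day 22. FL-HER2 at day 10 was the low group, the 3 other groups had like ranges, and the change was -0.51 ± 0.11, adjusted p = 0.00105. It passed with the digits term (-0.76, adjusted p = 0.00402). Eda2r (-0.58), Trp53inp1, the nuclease Aen (-0.31) and the cell cycle inhibitor Cdkn1a (-0.28) were the other negative calls, and Cdkn1a lost its call when any one of 22 libraries was left out.

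All 24 ribosomal protein genes had a negative change, of which 3 passed (Rps3, Rpl4 and Rps4x, each near -0.20), against 6.20% over all tested genes. The median was -0.11, where the median of all tested genes itself moved from 0.04 to -0.05 under quantile normalization, which raised the count to 13. Of 19 genes of the TGF-beta and activin list, against 13.5% and 6.20% over all tested genes, 3 passed upward and 2 downward (median 0.08). The receptor Tgfbr2 was among the first (0.56 ± 0.09, adjusted p = 7.62e-05), and the pathway inhibitors Smad7 (-0.41) and Skil (-0.44) were the second.

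Differences called at day 22 only were fewer, 111 in all, and included keratin genes higher in p95HER2. Krt14, the keratin of basal cells (chromosome 11, 100203162 to 100207548, minus strand), ran from 115 to 205 CPM (median 163) in FL-HER2 and from 101 to 162 CPM (median 143) in p95HER2 at day 10, and from 10.0 to 31.2 CPM (median 21.8) and 17.4 to 51.4 CPM (median 30.0) at day 22. Both constructs fell with time, FL-HER2 by 3.25 and p95HER2 by 2.20, and the change was 1.05 ± 0.26, adjusted p = 0.00383. Clu, the secreted chaperone clusterin (chromosome 14, 65968483 to 65981547, plus strand), ran from 235 to 722 CPM (median 546) and from 244 to 585 CPM (median 348) at day 10, and from 101 to 222 CPM (median 155) and 181 to 396 CPM (median 314) at day 22. Clu fell with time in FL-HER2 (-1.64), the change with time in p95HER2 was -0.38 (adjusted p = 0.138), and the change between days was 1.25 ± 0.29, adjusted p = 0.00212. With the digits term neither passed, Krt14 at 0.73 (adjusted p = 0.315) and Clu at 0.79 (adjusted p = 0.323).

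Scara5, a ferritin receptor (1.19 ± 0.21, adjusted p = 1.42e-04), the Wnt target and stem cell marker Lgr5 (1.12 ± 0.27, adjusted p = 0.00362) and the keratin Krt6a (2.65 ± 0.62, adjusted p = 0.00251) also passed. With the digits term Lgr5 was at 0.59 (adjusted p = 0.445) and Scara5 at 0.95 (adjusted p = 0.0751), neither past the threshold. Krt6a passed (adjusted p = 0.0469), but its FL-HER2 level at day 10 then rests on replicates 7 and 9. Replicate 7 had the highest epidermal score of the 39 libraries (9.80). Of 14 basal and myoepithelial markers 4 passed upward and 1 downward, against 13.5% and 6.20% over all tested genes. Upward were Trp63 (0.72) and Dsg3 besides the keratins, and Itgb4 passed downward (-0.45). Dsg3 was at 1.45, but at -0.18 on log2(CPM + 1) with an adjusted p of 0.490. Krt14 and Krt6a are also expressed in skin, and epidermal markers were high in some libraries of every group. Without the 11 libraries high in epidermal markers the changes were 0.98 for Krt14 (adjusted p = 0.0464) and 2.41 for Krt6a (adjusted p = 0.0210). The 9 tested epidermal differentiation genes had a median change of 0.57, and 2 passed upward.

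T cell genes moved downward where they passed. Of 23 T cell genes 5 passed downward, against 6.20% over all tested genes, and none upward. A negative change was seen in 22, and the median was -1.25. At day 22, 14 were lower in p95HER2 and at day 10, 2 were, against 210 and 3565 of all tested genes. With time 15 rose and 1 fell in FL-HER2, against 2830 and 4181 of all tested genes. In p95HER2 2 fell and none rose, against 2537 and 2262. The 5 were the regulatory T cell factor Foxp3, the receptors Icos (-1.93 ± 0.57, adjusted p = 0.0159), Tigit (-2.19 ± 0.71, adjusted p = 0.0258) and Ctla4 (-1.76 ± 0.60, adjusted p = 0.0345), and the lineage factor Bcl11b (-1.32 ± 0.37, adjusted p = 0.0101), all below the level the selection rule asks for and named after their values were seen.

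Foxp3 ran from 0.284 to 0.796 CPM (median 0.414) in FL-HER2 and from 0.220 to 1.09 CPM (median 0.572) in p95HER2 at day 10, and from 0.997 to 3.75 CPM (median 2.11) and 0.283 to 1.23 CPM (median 0.628) at day 22. FL-HER2 at day 22 was the high group and overlapped p95HER2 only at its low end, and the change was -1.77 ± 0.42, adjusted p = 0.00271. These are low levels. With the muscle covariate 10 T cell members passed downward (median -1.60), after quantile normalization 12, without the libraries high in epidermal markers 1, and with the digits term 1 (median -1.18). The member that passed with the digits term was Bcl11b (-1.89, adjusted p = 0.0417).

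Of 17 checkpoint ligands and receptors 5 passed downward and 2 upward, against 6.20% and 13.5% over all tested genes. Downward were Icos, Tigit and Ctla4 again with Lag3 (-1.28 ± 0.36, adjusted p = 0.0113) and the costimulatory receptor Tnfrsf9 (-1.04). Upward were Vsir (0.73 ± 0.13, adjusted p = 1.66e-04), an inhibitory ligand of myeloid cells, and Vtcn1. The integrins of dendritic and resident T cells, Itgax (-0.89, adjusted p = 0.0458) and Itgae (-1.27, 0.0374), were called at day 22 only. Itgax lost its call when any one of 27 libraries was left out, and Itgae with any one of 14. Of 9 MHC class II genes 1 passed, H2-DMb2 (-1.26), and of 12 NK and cytotoxic genes none, with medians of -0.56 and -0.75.

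Interferon and proliferation genes gave no call between days on the deposited values without covariates. None of 26 type I interferon genes (median 0.002), 22 interferon gamma response genes (median -0.70) or 14 MHC class I genes (median 0.01) passed. At an unadjusted p under 0.05 the counts were 0, 2 and 0, and voom called 0, 0 and 0. For the interferon gamma list all 22 changes were negative, with errors as wide as that of Iigp1 (-0.82 ± 0.71, adjusted p = 0.430), and the median turned to 0.78 with the digits term. With the muscle covariate 2 interferon gamma genes passed downward (median -1.24), and with muscle and skin covariates 2 (median -1.46). The type I and MHC class I medians came to 1.09 and 1.02 with the digits term. The medians of these lists thus moved with that term, under which none of their members passed. The FL-HER2 day 10 level then rests on replicates 7 and 9, so no direction is read from them. None of 23 DNA replication genes (median -0.04) and none of 22 mitosis genes (median -0.17) passed, with Mcm7 at -0.02 ± 0.07, adjusted p = 0.894 and Top2a at -0.24 ± 0.09, adjusted p = 0.0654. At an unadjusted p under 0.05 there were 0 and 7, and voom called 0 and 2. With median-of-ratios factors 2 mitosis genes passed downward, and with quantile normalization 3.

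A property that the contrast did not use differed by direction. The 1819 genes with a positive change that have an annotated position spanned a median of 22304 bases of genome, the 839 with a negative change 41098 bases, and all 13530 tested genes with a position 23749 bases. Genes higher in p95HER2 at day 10 spanned a median of 43960 bases and those lower 19834 bases. Gene span moved with direction in both, and the part of RNA quality, scaling or cell makeup in this was not tested.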

How the data were processed

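RNA of 39 PB2 tumors was extracted and sequenced as strand-specific poly(A) libraries, per the labels' protocols. The submitters' processing notes name STAR 2.4.2a, DESeq2 and the mm10 build. The authors deposited 1 table of 20520 genes whose values are log2 values. From the values, each is the log2 of a read count divided by a library factor, plus a pseudocount of 1, and 100.0% of values gave whole reads within 0.001 reads. The original factors were kept. A gene was tested where 9 or more libraries reached 1 CPM, which left 13650 genes, with limma 3.58.1 in R 4.3.3 (1 mean per group over all 39 libraries, eBayes with a trend, two-sided contrasts, Benjamini-Hochberg adjustment over all tested genes, called under 0.05). The edgeR test that had been planned was not run, because the deposited unit is log2, and voom took its place with median-of-ratios factors, chosen after seeing the data. The script was tested on simulated data.

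CPM values were computed from the recovered reads and, apart from the set medians given with gene span, are not compared between genes. No 2 libraries held identical values. Of the tested genes 13530 matched 1 gene of the GENCODE M21 annotation (GRCm38, the build of mm10), which gave positions. Promoter windows came from RefSeq. The members and the 55 gene lists (906 genes, 899 in the table) were chosen with earlier results of these data known.

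Named genes had to be called, to reach a mean of 5 CPM in at least 1 group, and to have medians that moved the same way by at least 0.5 of the change. Predicted genes, Rik clones and receptor segments were left out. Taken were the 6 largest changes of each sign, up to 5 per shape and sign that also passed with the muscle score as a covariate, and up to 4 per list with at least 3 called members, besides genes set out by name. Alternatives covered the pseudocount, the filter, the scaling, library weights, muscle and skin scores, the digits of the tumor number and each library left out. Some genes that passed are not reported here.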

Additional observations from a re-analysis of the deposited data

Results flagged for a closer look

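The contrast between days is itself a test of whether the construct difference was the same at both time points, and 2682 genes passed it. Among the genes given by library these were Atp6v0a4 (2.77), Wif1 (1.58), Timp3 (0.96), Adora1 (1.37), Lama3 (0.63), Krt14 (1.05), Clu (1.25), Cthrc1 (1.77), Cd34 (1.36), Eng (0.95) and Tspan8 (1.86) with a positive log2 change. Those with a negative one were Stra6 (-2.89), Otof (-2.64), Bcl2 (-0.56), Slc20a1 (-0.95), Atg9b (-1.40), Mmp10 (-1.87), Zmat3 (-0.51), Hsd17b7 (-0.63) and Foxp3 (-1.77).

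Single libraries far from the rest of their group were found in 13 of 100 checks, where chance alone marks about 1 in 20. FL-HER2 day 22 replicate 6 stood out in 3 genes: Timp3 at 297 CPM (next 229.6), Mmp10 at 0.597 CPM (next 0.293) and Lama3 at 3.67 CPM. p95HER2 day 22 replicate 3 stood out in Stra6 at 1.40 CPM (next 0.731) and Hsd17b7 at 30.0 CPM (next 23.9). In Adora1, FL-HER2 day 10 replicate 10 had 29.3 CPM (next 21.3) and p95HER2 day 10 replicate 4 had 17.6 CPM (next 11.3). Mmp10 reached 3.24 CPM in p95HER2 day 22 replicate 4 (next 1.84), and Otof 4.58 CPM in FL-HER2 day 10 replicate 1 (next 2.51). Eng was 55.3 CPM in p95HER2 day 10 replicate 10 (next 37.8), and Cd34 was lowest, at 17.4 CPM, in FL-HER2 day 22 replicate 4 (next 25.5). Within FL-HER2 at day 22, replicate 8 held 0.996% muscle reads (next 0.506%), and replicate 7 had an epidermal score of 6.81 (next 5.12).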

How the results depend on the processing

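The count of 2682 genes stayed within 1.5 times under the other pseudocounts (2641 and 2765), the other filters (2425 without one, 2258 at 5 CPM), other scalings (2611 with median-of-ratios factors, 2778 on log2(CPM + 1)), voom (2453) and the muscle and skin covariates (2094 and 2170). Quantile normalization called 1210 positive and 1623 negative changes, which turns the split of signs. Library weights called 4577 genes (2885 and 1692), libraries with a skin score below 6 called 1659 (1192 and 467), the digits term 233 (130 and 103), and the 20 libraries with 0.1% to 1.3% muscle reads 24 (20 and 4), with 2 of them FL-HER2 at day 10. A change of at least 1 on the log2 scale left 567 (510 and 57). Leaving out 1 library gave 2233 genes (without FL-HER2 day 10 replicate 2) to 3233 (without p95HER2 day 10 replicate 1), 1527 to 2151 positive and 705 to 1096 negative. The cause of these shifts was not tested beyond the fewer libraries in some settings.

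Of 149 named genes that passed, 130 lost the call with the digits term, 144 in the muscle-limited libraries, 37 in those low in skin, 18 with the muscle covariate and 27 when some single library was left out, and none of the 149 reversed. Of named genes that did not pass, Msln turned from 0.22 to -0.73 on log2(CPM + 1), and the cause was not tested. Of genes outside that rule that passed, Dsg3 turned from 1.45 to -0.18 and Prss22 from 1.18 to -0.022 on that scale, neither past the threshold there, and the cause was not tested. No paired analysis was possible because the tumor numbers are shared by no groups and the replicate numbers only follow the accession order.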
